A study of Mus musculus with 12 samples.

Results

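The comparison is between B cells that had divided at least 8 times and remained CD138- (Div8neg) and B cells that had divided 5 times (Div5). It asks which CpGs lost or gained methylation between those divisions in cells without CD138, which plasmablasts and plasma cells carry on their surface. The samples alone define it: 4 of the 12 libraries of the series, 2 per fraction, with all 760348 CpGs that had at least 10 reads in each of the 12. The donor cells were resting splenic B cells (B220+ CD43-) of naive mice, stained with CFSE or CTV, dyes that are diluted at each division. They were transferred into uMT mice, which cannot make mature B cells of their own and keep T, NK and myeloid cells, and the hosts were then given LPS, a bacterial cell wall component to which B cells respond by dividing and secreting antibody. The cells were sorted from the spleen on day 3. The series' design text names C57/BL6J donors, while the labels give the strain as B6.SJL-Ptprca Pepcb/BoyJ, with the sex as female and the age as 8 weeks, for both groups. Neither says whether that strain is of the transferred cells or of the host. The replicates are hosts 196 and 197, and each host gave 1 library to each fraction. Div8neg has no upper bound on divisions, so its cells may span several.

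Methylation of a CpG is copied onto the new strand after replication by Dnmt1 with its partner Uhrf1. Where copying lags it is diluted as cells divide, and Tet enzymes can also start its removal, often at enhancers. Dnmt3a and Dnmt3b add methylation to unmethylated sites. Plasma cell differentiation, which Irf4, Prdm1 and Xbp1 direct, is known to be accompanied by loss of methylation in dividing B cells.

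Reads over the CpGs summed to 19961643 and 49530616 in the Div5 libraries of hosts 196 and 197, and to 19210982 and 35765262 in the Div8neg libraries. The median CpG was covered by 23, 57, 22 and 41 reads in that order, so levels from host 196 carry more counting error. The 4 B cell marker promoters read (Cd79a, Cd79b, Pax5 and Ebf1) were at low mean levels in all 4 libraries, from 1.60% to 5.31%, and the 4 NK cell marker promoters averaged 86.3% or above. The 4 T cell marker promoters averaged 67.4% or above, but Bcl11b among them was as low as the B cell promoters, from 4.93% to 8.14%.

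Methylation was lower at Div8neg than at Div5 across the genome. The mean level over all CpGs was 55.4% and 55.0% in Div5 and 53.2% and 53.1% in Div8neg (hosts 196 and 197). Both Div8neg libraries lay below both Div5 libraries. The difference was -2.24 percentage points in host 196 and -1.89 in host 197, a mean of -2.07 ± 0.247 (SD, n = 2 hosts). An exact permutation test, two-sided, gave p = 0.33, the smallest that 2 libraries against 2 allow. From undivided cells (Div0) to Div5 the mean had changed by -0.790 points, and CD138+ cells of at least 8 divisions (Div8pos) differed from Div8neg by -3.25 points. Taken from summed reads the difference was -3.45 points, over 1.5 times as large.

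The size of the fall depended on the starting level. CpGs were grouped by their mean level at Div0, Div1 and Div3, which are not in the comparison. Those at 60 to 80% fell by 5.73 points in host 196 and by 5.42 in host 197, and those at 80 to 90% fell by 5.63 and by 5.74. The 253551 CpGs at 95 to 100% fell by 2.64 and by 2.83 points. Below 20% the hosts differed in sign: CpGs under 5% changed by -0.126 points in host 196 and 0.838 in host 197, and those at 5 to 20% by -0.357 and 0.876. CpGs at 80% or above made up 50.9% and 51.1% of the total in Div5 and 46.9% and 46.9% in Div8neg, while intermediate CpGs (20 to 80%) went from 10.8% and 10.3% to 14.6% and 14.6%.

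**Figure D1:**
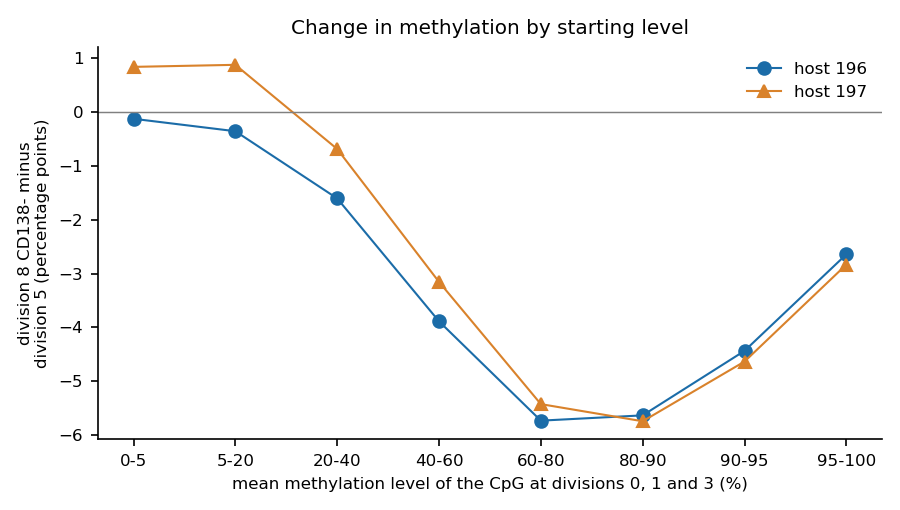
Mean difference in methylation between division 8 CD138- and division 5 cells (percentage points, y axis) for CpGs grouped by their mean level at divisions 0, 1 and 3 (%, x axis), shown for each host. The fall is deepest between 60 and 90%, where both hosts lie between -5.42 and -5.74 points, and below 20% the hosts lie on opposite sides of 0.

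Among CpGs at 80% or above at Div0 to Div3, isolated ones fell more. With no other covered CpG within 50 bp the difference was -4.21 points in host 196 and -4.28 in host 197, and with 6 or more neighbours it was -1.87 and -2.16. By annotation it was -4.09 points in promoters (2500 bp before to 500 bp after a start site), -3.82 in introns, -3.47 between genes and -2.91 in exons. The autosomes ranged from -1.90 points on chromosome 19 to -2.19 on chromosome 14 over all CpGs, and chromosome X differed by -1.81.

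Single CpGs with large losses far outnumbered those with large gains. A CpG was called where a quasi-binomial test gave a Benjamini-Hochberg adjusted p under 0.05 and the fraction means differed by at least 20 points. By this rule 901 CpGs were lower (0.118% of those tested) and 75 were higher (0.00986%). Both hosts moved the same way at 899 of the 901 and at 75 of the 75, which the call itself largely fixes. The counts rest on the deeper host: without the Div5 library of host 197 there were 98 lower and 0 higher CpGs, without its Div8neg library 87 and 25, and without the Div5 library of host 196 there were 473 lower CpGs. Letting the spread follow coverage left 563 lower CpGs, while edgeR called 860 and 84. Taking each CpG's own spread left 0 of either kind. At an unadjusted p under 0.05 that fit had 23721 lower and 3483 higher of 760348 CpGs. Together these are a smaller share than the 0.05 that a test without any change would give.

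The lower CpGs went from high to intermediate methylation. Their median was 90.9% and 90.3% in Div5 and 60.5% and 57.7% in Div8neg. It had been 92.0% and 91.9% at Div0 and was 53.3% and 51.9% in Div8pos. At Div8neg 597 of them lay between 50 and 80%, 251 between 20 and 50% and 53 under 20%. At 68 a fall of at least 20 points had already taken place from Div0 to Div5. Of CpGs at 80% or above at Div0 to Div3, which had room to fall, 0.288% were called lower in promoters, 0.237% in introns, 0.153% between genes and 0.124% in exons. By distance from a start site the share was 0.189% within 500 bp (17 of 8998), 0.314% from 500 bp to 5 kb, 0.191% from 5 to 50 kb and 0.112% beyond that. Promoters held 7.88% of the 901 and 17.4% of all CpGs, most promoter CpGs being unmethylated from the start. The 901 carried 647 gene symbols.

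**Figure D2:**
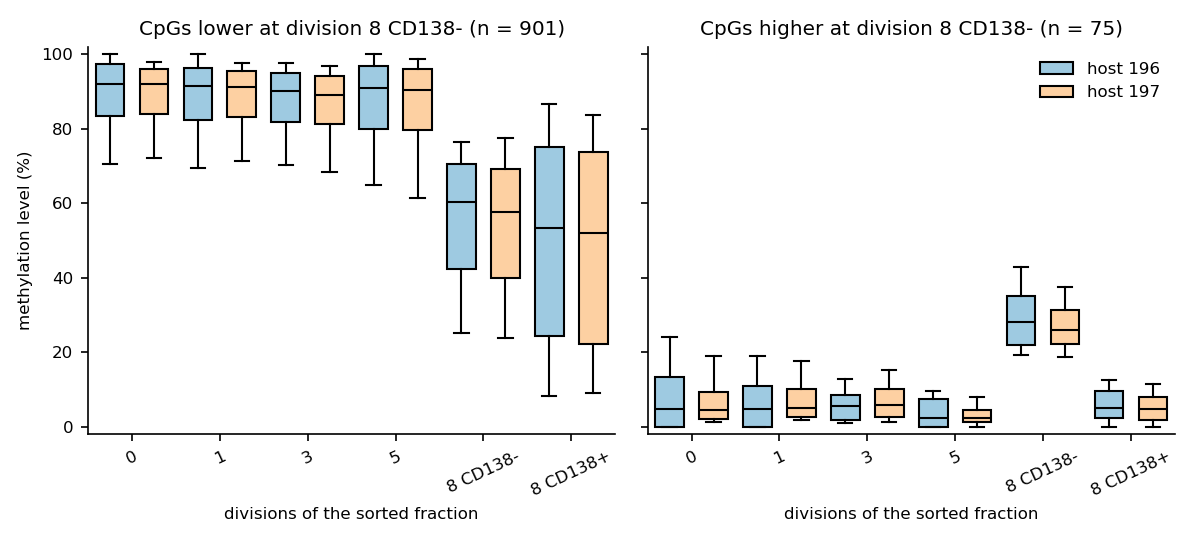
Methylation level (%) of the 901 lower CpGs (left) and the 75 higher CpGs (right) in each of the 12 libraries, as boxes per fraction and host. The lower CpGs drop from medians of 90.9 and 90.3% at division 5 to 60.5 and 57.7% in CD138- cells, and the higher CpGs rise to 28.0 and 26.0% there and are at 5.00 and 4.76% in CD138+ cells.

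The lower CpGs were also read in Div8pos against Div3, a contrast with which this one shares no library, although it shares the hosts and the dispersion estimate. Of the 901, 574 (63.7%) were called lower there and none was called higher, against 6.03% and 0.0113% of all CpGs. The difference was below 0 at 868 of them, with a median of -31.7 points. Among CpGs whose mean over the Div0 and Div1 libraries was 80% or above, 8.70% of 397651 were lower in that contrast, and 64.2% of the 727 that were also lower at Div8neg.

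Each host was also taken alone, with Fisher's exact test on its 2 libraries, and the CpGs found were followed in the other host. Of 561 CpGs lower in host 197, 483 (86.1%) were lower in host 196, with a median difference there of -14.3 points. At 338 the fall in host 196 was at least 10 points, and at 162 its unadjusted Fisher p was under 0.05. Of 20 lower in host 196, 19 were lower in host 197, with a median of -33.4 points. Of 70 higher in host 197, 58 (82.9%) were higher in host 196, with a median of 9.15 points. At 33 the rise was at least 10 points, and at 13 the unadjusted Fisher p was under 0.05. Host 196 gave no higher CpG of its own. Over CpGs of all levels, many of which could not move that way, 48.8% were lower and 30.5% higher in host 196.

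Levels in CD138+ cells split the lower CpGs, as a description only, since Div8neg chose them. Div8pos was at least 10 points below Div8neg at 340, within 10 points at 358, and at least 10 points above at 203. At those 203 the median level started at 93.0% in Div0 and was 94.8% in Div5, then 65.6% in Div8neg, against 81.0% in Div8pos. The CpG at -50 bp from the start of Stat5a, a transcription factor activated by cytokines, was at 95.5% and 90% in Div5, 41.7% and 56.2% in Div8neg, and 73.1% and 92.1% in Div8pos. A CpG at -449 bp from the start of Tnfsf13b, which encodes the B cell survival factor BAFF, was at 81.8% and 83.7%, then at 50.0% and 36.4%, then at 66.7% and 67.5%. At both, the Div8neg libraries lay below all 4 of the others. A CpG near Sv2c, a synaptic vesicle gene, went from 100% and 97.7% to 68.1% and 57.1% and was at 97.8% and 97.4% in Div8pos. These genes were chosen after their values were seen.

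At least 3 lower CpGs with gaps of at most 500 bp formed 23 regions, which held 93 of the 901, and no region of higher CpGs was found. All 23 were lower in both hosts, with differences from -22.6 to -50.8 points. The calls of their CpGs largely fix this, and also how far apart the groups lie at each region described below. Introns overlapped 11, 10 were wholly intergenic and 3 reached a promoter. At 16 Div8pos was at least 10 points below Div8neg, at 22 it was at least 20 points below Div3, and at 9 Div5 was already at least 10 points below Div0. Without the Div8neg library of host 197 there were 4 regions, without the Div5 library of host 197 there were 8, and without that of host 196 there were 14. A region's level is the mean over its covered CpGs, and positions are in mm9. Neighbouring CpGs can share reads, so the called CpGs of a region are not independent of each other.

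Runx3, a transcription factor of lymphocyte differentiation, held the most lower CpGs, 12 of 14 covered, across an exon and intron on chromosome 4 from 134711247 to 134711505, 2.83 kb from the nearest start site. The region was at 87.2% and 83.8% in Div5, 56.5% and 46.6% in Div8neg, and 42.1% and 37.4% in Div8pos. The groups did not overlap, and the difference was -33.9 ± 4.50 points (SD, n = 2 hosts). At Div0 the mean was 89.4% and at Div3 88.2%, so little had changed before Div5.

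A region on chromosome 3 from 87405108 to 87405359, between genes and 17.6 kb from the nearest start site, that of Arhgef11, a guanine nucleotide exchange factor, held 10 lower CpGs of 11. It was at 70.6% and 64.9% in Div5, 27.0% and 29.1% in Div8neg, and 27.3% and 21.8% in Div8pos. Here the loss had begun by Div5 (90.2% at Div0, 84.1% at Div3), and the CD138- and CD138+ libraries overlapped.

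Between Atg5, an autophagy gene, and Prdm1, which encodes the plasma cell regulator Blimp-1, 5 of 5 CpGs were lower on chromosome 10 from 44120496 to 44120739, 41.0 kb from the nearest listed start site. Levels were 92.3% and 91.4% in Div5, 53.5% and 54.1% in Div8neg, and 4.57% and 3.72% in Div8pos. The difference was -38.0 ± 1.11 points, with the hosts close together in each of these fractions. The level had been 94.1% at Div0 and 95.2% at Div3.

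Tnfrsf13b, which encodes TACI, a receptor for BAFF and APRIL, had the largest region difference. Its intronic region on chromosome 11 from 60942754 to 60942928 (4 of 4 CpGs) was at 79.9% and 67.4% in Div5, 18.5% and 27.3% in Div8neg, and 8.98% and 12.04% in Div8pos. The difference was -50.8 ± 15.1 points, and the groups were far apart in both hosts.

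Other regions went on falling in CD138+ cells. An intronic region of Pced1b on chromosome 15, from 97210391 to 97210567, was at 76.3% and 80.7%, then at 36.4% and 34.5%, with 13.6% and 13.5% in Div8pos. An intronic region of Raly, which encodes an RNA-binding protein, on chromosome 2 from 154846223 to 154846349, was at 74.4% and 67.9%, then at 30.5% and 33.4%. An intergenic region near Zfp608, a zinc finger gene, was at 76.8% and 89.4%, then at 44.8% and 33.1%. The groups did not overlap at any of these, which the calls largely fix. At Cdc37, a kinase co-chaperone, the hosts were far apart in Div8neg, at 56.5% and 29.6%, after 91.2% and 83.6% in Div5, and at Cd2bp2 Div8neg was at 23.8% and 42.4%. The region near Cwh43 fell by 38.6 points. Of the other 13 regions, each with 3 lower CpGs, 1 is in the promoter of Ptpn1, a phosphatase that restrains cytokine signalling, at 92.2% and 94.0% in Div5 and 58.8% and 57.7% in Div8neg, chosen after its values were seen.

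**Figure D3:**
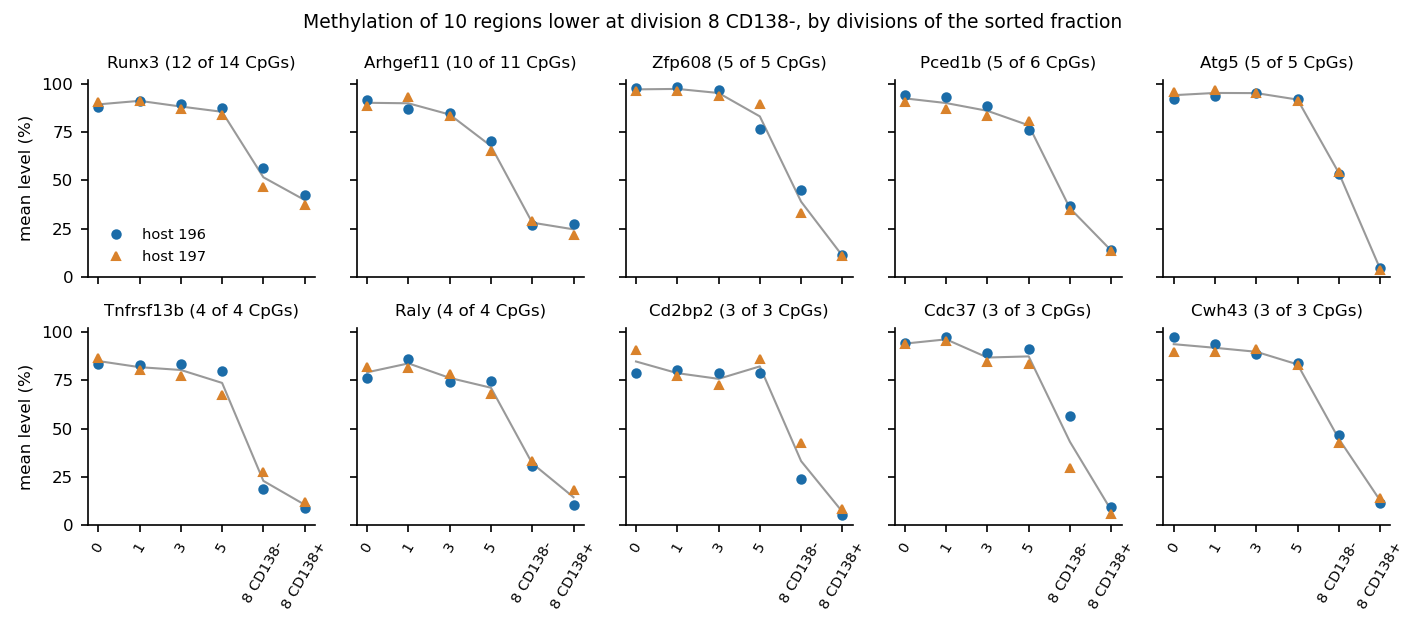
Mean methylation level (%) of the 10 regions with the most lower CpGs, by fraction, with a point per host and a line through the fraction means; titles name the nearest gene. All 10 fall between division 5 and division 8 CD138-, with differences from -33.9 (Runx3) to -50.8 (Tnfrsf13b) points.

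Over whole genes the differences were smaller. A gene's level is the mean over its CpGs within 50 kb of a start site, for 16505 genes with at least 5, and a gene was called at a limma adjusted p under 0.05 and a difference of at least 10 points. So called, 64 genes were lower (0.388%) and 1 was higher (0.00606%), and the median difference over all genes was -1.65 points. The 64 had few CpGs, a median of 7 against 26 over all genes, and 18 of them held a lower CpG. In Div8pos against Div3, 44 of the 64 were called lower, against 13.3% of all genes. That share covers genes of all levels and CpG numbers, so it is not matched to the 64. A limma fit of the 4 libraries alone called 0 genes in either direction (5208 at an unadjusted p under 0.05), and levels from summed reads gave 2 lower. The count was 30 without the Div5 library of host 196, 118 without the Div8neg library of host 197 and 99 without that of host 196.

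Ndufb10, a subunit of respiratory complex I, had the largest difference, over 7 CpGs. It was at 66.7% and 62.2% in Div5, 31.4% and 27.1% in Div8neg, and 8.73% and 9.73% in Div8pos (-35.19 points, SE 2.49, limma adjusted p = 0.0025). Cyp8b1, a bile acid synthesis enzyme, was at 85.7% and 85.8%, then at 58.7% and 65.8% (limma adjusted p = 0.0051). C1qbp, a mitochondrial protein that binds complement C1q, was at 91.9% and 92.4%, then at 78.1% and 71.9%, with 37.6% and 45.4% in Div8pos. In these 3 genes the groups did not overlap, which the call largely fixes at any called gene. Div8pos was lower again in both hosts in these 3 genes.

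At Olfr1184, an odorant receptor gene, Div8neg was lowest: 98.9% and 95.4% in Div5, 75.8% and 86.0% in Div8neg, and 92.9% and 89.6% in Div8pos (limma adjusted p = 0.0097). Olfr715, another odorant receptor gene, was at 87.4% and 85.9%, then at 65.8% and 77.4%. Il1a, which encodes interleukin 1 alpha, was at 68.1% and 75.6%, then at 60.8% and 54.0%, with a limma adjusted p of 0.042, which was 0.058 with the host as a term and 0.055 to 0.18 with 1 library left out. Syt3, a synaptotagmin gene, Nlrc3, which restrains innate signalling, the prenyltransferase gene Pggt1b and E230025N22Rik differed by -14.86, -14.56, -15.50 and -19.82 points. Each of these 7 rests on 5 to 7 CpGs. Without the Div5 library of host 196 the limma adjusted p was 0.092 for E230025N22Rik, 0.070 for Olfr1184, 0.151 for Olfr715, 0.089 for Syt3 and 0.060 for Nlrc3. Without the Div5 library of host 197 it was 0.083 for Olfr715, and without the Div8neg library of host 196 it was 0.150 for Olfr715 and 0.052 for E230025N22Rik. With levels from summed reads Ndufb10 and Apobec1 were the 2 lower genes left, and the limma adjusted p of Cyp8b1 and C1qbp was 0.097 each.

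Rab30, a small GTPase of the Golgi, was lower, at 77.4% and 80.1% in Div5 and 65.3% and 66.9% in Div8neg (limma adjusted p = 0.0068). From summed reads its difference was -7.18 points (limma adjusted p = 0.28). Gimap4, a GTPase of lymphocyte survival, did not pass: it was at 64.5% at Div0, 24.7% and 29.0% in Div5 and 18.5% and 25.1% in Div8neg (limma adjusted p = 0.13). Nor did Sp110, a nuclear body protein, at 53.8% and 50.0%, then at 50.3% and 47.0%, after 77.7% at Div0 (limma adjusted p = 0.37). At both, the difference from Div0 to Div5 was larger than the difference tested here. Pik3ip1, an inhibitor of PI3K, was at 38.5% and 39.9%, then at 35.4% and 25.7% (limma adjusted p = 0.051, and 0.013 without the Div8neg library of host 196). Bckdha, of branched-chain amino acid breakdown, was at 54.3% and 54.5%, then at 58.6% and 57.5% (limma adjusted p = 0.12).

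Igll1, which encodes the lambda 5 surrogate light chain of precursor B cells, was the higher gene, over 5 CpGs. It was at 33.2% and 32.0% in Div5, 42.8% and 42.6% in Div8neg, and 33.1% and 25.4% in Div8pos (10.08 points, SE 2.64, limma adjusted p = 0.030). The groups did not overlap, but leaving out any 1 of the 4 libraries gave a limma adjusted p of 0.0855 to 0.113. From summed reads the difference was 4.76 points, with a limma adjusted p of 0.58.

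**Figure D4:**
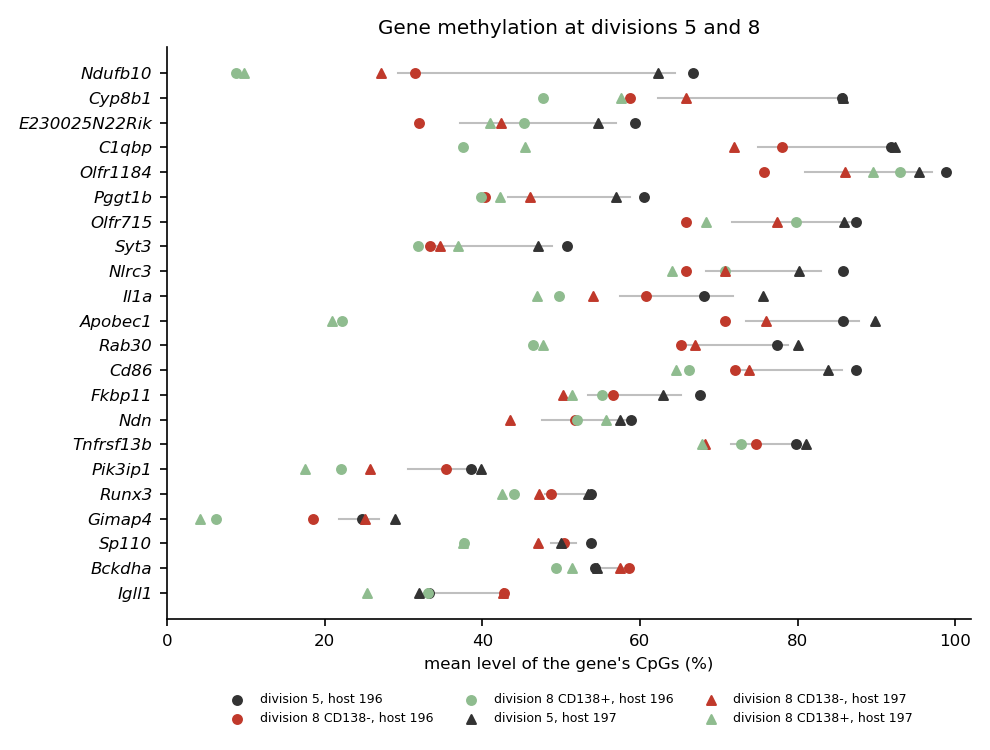
Mean level (%) of the CpGs of each gene named by the rule, in the division 5, division 8 CD138- and division 8 CD138+ libraries of both hosts, with a line between the means of the first pair of fractions. Ndufb10 has the longest line, from 64.5 to 29.3%, and Igll1 and Bckdha run the other way.

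Gene lists by function were read by how many members held a called CpG. Over all genes 519 (3.14%) held a lower CpG and 52 (0.315%) a higher CpG. Of 25 measured plasma cell genes 5 held lower CpGs (Creld2, Irf4, Prdm1, Tnfrsf13b and Zbtb20), and the list's median difference was -2.40 points. At Irf4, which directs plasma cell fate, a CpG at -2362 bp from the start was at 64.1% and 79.2% in Div5, 42.4% and 46.0% in Div8neg, and 23.3% and 27.8% in Div8pos. Fkbp11, a chaperone of the secretory pathway, was called as a gene, at 67.7% and 62.9%, then at 56.6% and 50.3% (limma adjusted p = 0.012, and 0.084 without the Div5 library of host 196). Without the Div8neg library of host 197 its difference was -8.68 points, under the limit.

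Of 24 activation and germinal centre genes 3 held lower CpGs (Basp1, Batf and Cd86), with a list median of -1.99 points. Cd86, the costimulatory ligand of activated B cells, was called over 21 CpGs, at 87.4% and 83.8% in Div5, 72.1% and 73.8% in Div8neg, and 66.2% and 64.5% in Div8pos (limma adjusted p = 0.0040). One of its intronic CpGs went from 72.7% and 68.1% to 27.8% and 23.7%. Of 21 PI3K and FoxO genes 3 held lower CpGs (Foxp1, Pik3r1 and Pik3r5) and 2 held higher ones (Inpp5d and Pik3ap1), with a median of -1.72 points. The CpG in Foxp1, a forkhead factor of B cells, was at 92.3% and 93.9%, then at 62.5% and 54.7%, with 36.8% and 23.2% in Div8pos.

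Of 28 Toll-like receptor and NF-kB genes Cd180 and Nfkbia held lower CpGs, and all 28 gene differences were below 0, with a median of -2.61 points (14033 of the 16505 genes were below 0). An exonic CpG of Nfkbia, which encodes the inhibitor IkB alpha, was at 88.2% at Div0, 47.7% and 56.3% in Div5, 24.5% and 28.0% in Div8neg, and 8.45% and 3.54% in Div8pos. Of 22 genes of the DNA methylation machinery 3 held lower CpGs (Apobec1, Dnmt3a and Tet3), with a median of -1.36 points. Apobec1, a cytidine deaminase, was called, at 85.8% and 89.8%, then at 70.9% and 76.0%, with 22.2% and 20.9% in Div8pos. Of 18 Ikaros, Runx and Ets factors Runx3 and Spi1 held lower CpGs, with a median of -1.72 points, and Runx3 as a gene of 178 CpGs differed by -5.60 points.

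Of 26 B cell identity genes 1 held a lower CpG (Pou2f2) and 2 held higher ones (Blnk and Id3), with a median of -2.05 points. The counts for the lists leave out members with lower CpGs only beyond the 50 kb limit. These included Runx2, Ikzf2, Tnfaip3, Mef2c and Cxcr4. They also included Pax5 and Ebf1, which maintain B cell identity, with lower CpGs in introns. The one in Pax5 was at 67.9% and 66.7% in Div5, 50.0% and 21.6% in Div8neg, and 17.4% and 23.5% in Div8pos.

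Of 16 T cell genes 2 held a lower CpG (Tbx21 and Tcf7, median -2.19 points), or 12.5%, the same share as in the activation and germinal centre list. So did 2 of 26 unfolded protein response and secretion genes (Canx and Ssr1, median -0.73 points), 1 of 30 cell cycle genes (Ccne1, -0.31) and 1 of 16 migration genes (S1pr1, -2.09). No member did among 7 NK cell genes (-0.56), 14 myeloid genes (-2.52), 6 erythroid genes (-2.25), 25 imprinted genes (-1.31) and 20 germline genes (-2.89). The imprinted gene Ndn was called over 9 CpGs, at 58.9% and 57.5%, then at 51.7% and 43.5%, with 52.1% and 55.7% in Div8pos. Its limma adjusted p was 0.030, and it was 0.145 and 0.073 without the Div5 library of host 196 or 197 and 0.130 without the Div8neg library of host 197.

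Most of the 75 higher CpGs were at low levels in the other fractions. Their median was 2.38% and 2.33% in Div5, 28.0% and 26.0% in Div8neg, and 5.00% and 4.76% in Div8pos. At 57 the mean of Div0 to Div3 was under 10%, at 62 Div8pos was, and at 50 both were. In Div8pos against Div3 none of the 75 was called in either direction, and their median difference was -0.75 points. They lay in introns (35), between genes (31), in exons (5) and in promoters (4), and 76.0% were more than 5 kb from a start site. All 75 were autosomal, and 8 genes held 2. Such pairs can share reads, as neighbouring CpGs of a region can.

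Low CpGs were also chosen without the 4 libraries. Of 222567 CpGs at 10% or below in each of the 8 others, 226 were at 15% or above in both Div8neg libraries and 20 in both Div5 libraries. With at least 20 reads in each of the 4 libraries it was 111 against 5, of 141482 CpGs. More than 5 kb from a start site it was 155 against 7, of 18461. In reverse, of 93578 CpGs at 90% or above in the 8 others, 7 were at 75% or below in both Div8neg libraries and 1 in both Div5 libraries.

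Higher CpGs in members of the lists were at Blnk and Id3 (B cell identity) and at Inpp5d and Pik3ap1 (PI3K and FoxO). At Blnk, an adaptor of B cell receptor signalling, an intronic CpG was at 33.3% at Div0, 0 and 6.74% in Div5, 31.0% and 26.1% in Div8neg, and 2% and 6.78% in Div8pos. At Pik3ap1, the PI3K adaptor BCAP, an intronic CpG took the same course, from 40.05% at Div0 to 14.6% and 5.98%, then 28.0% and 38.0%, then 1.23% and 1.12%. Both had lost methylation by Div5 and were higher at Div8neg. Inpp5d, the phosphatase SHIP1, held a CpG at 6.52% and 9.86% in Div5 and 26.3% and 35.8% in Div8neg. A CpG near Id3, an inhibitor of E proteins, was at 8.33% and 1.45%, then at 23.5% and 28.9%. Hvcn1, a proton channel of B cells, held 2 higher CpGs, and Pik3r2, a regulatory subunit of PI3K, held 1 in its promoter. Near Ffar2, a receptor for short-chain fatty acids, a CpG was at 85.4% at Div0, 15.6% and 12.9% in Div5, 44.4% and 47.3% in Div8neg, and 20.7% and 28.5% in Div8pos. The largest mean gain was 43.6 points at a CpG near Cpm, a membrane carboxypeptidase. It was at 0 and 2.5% in Div5 and at 62.5% and 27.3% in Div8neg, so the hosts were far apart. Its reads were 15 and 40 in Div5 and 16 and 33 in Div8neg (hosts 196 and 197). Hvcn1, Pik3r2, Ffar2 and Cpm were chosen after their values were seen.

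**Figure D5:**
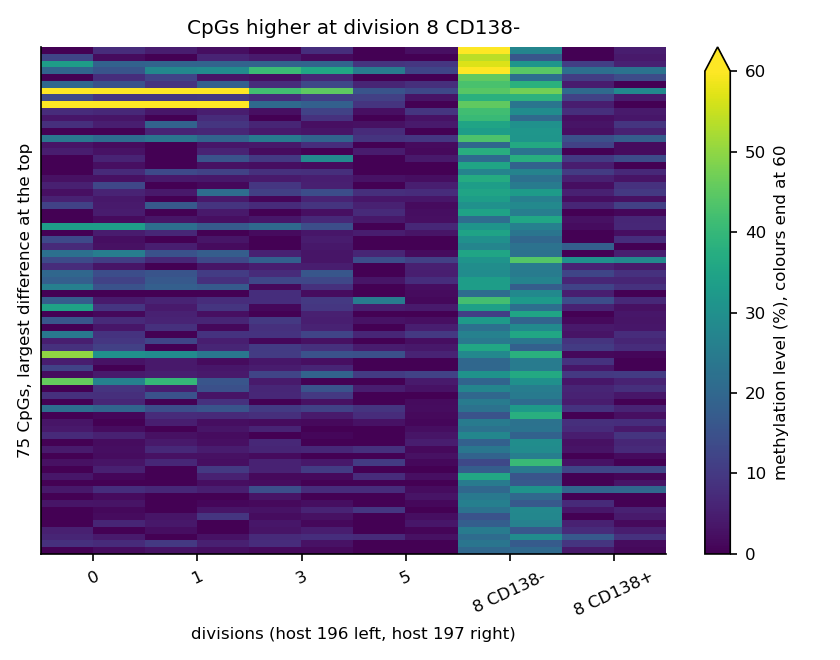
Methylation level (%, colour scale ending at 60) of the 75 higher CpGs, 1 row per CpG, in the 12 libraries, ordered by fraction and, within it, by host. Both division 8 CD138- libraries stand above the rest at most of the CpGs, with medians of 28.0 and 26.0% against 2.38 and 2.33% at division 5, and a few rows, such as those of Ffar2 and Arfip1, are also high at division 0.

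Marker promoters, read within 2.5 kb of the start, are given beside these gains. The 4 B cell genes averaged 1.60% and 3.61% in Div5, 4.42% and 5.31% in Div8neg, and 3.01% and 5.05% in Div8pos, and 2 of the 4 (Cd79b and Pax5) were higher in both hosts. The 4 T cell genes averaged 72.9% and 69.9%, then 70.4% and 67.4%, and 2 of the 4 (Cd3e and Cd8a) were lower in both hosts. The 4 NK cell genes averaged 91.2% and 93.9%, then 86.3% and 90.5%, and 3 of the 4 were lower in both hosts (not Il2rb). Of the 2 myeloid genes Itgam was lower and Mpo higher in both hosts, with a mean of 67.9% and 65.04%, then 66.7% and 63.3%. The 3 erythroid genes averaged 63.2% and 65.5%, then 64.0% and 62.2%, and the 4 plasma cell genes 15.6% and 15.3%, then 14.4% and 14.7%. Only the plasma cell class (1 lower, 2 higher) and the myeloid class held both members lower and members higher in both hosts. No B cell member was lower in both hosts, and no T cell, NK cell or erythroid member was higher in both. The differences were -4.23 points at Cd3e, -5.92 at Cd8a, -3.65 at Klrb1c and -4.20 at Prf1. They were -8.51 at Itgam, and -11.4 and -6.06 at the 1 CpG each of Ncr1 and Gata1. The hosts differed in sign at Cd4 (-0.29 points), Il2rb (2.33), Slc4a1 (1.61), Bcl11b (0.11) and Klf1 (0.62). Mpo differed by 5.58 points. At Div0 to Div3 Cd8a, Itgam, Gata1 and Slc4a1 averaged between 90 and 95%, and all CpGs at that level differed by -4.53 points. Cd4 and Il2rb averaged between 80 and 90%, where all CpGs differed by -5.69 points. Cd3e, Klrb1c, Prf1 and Ncr1 averaged above 95%, and all CpGs at 95 to 100% differed by -2.74 points. In bulk samples a different mixture of cells and a change within cells cannot be told apart, and the part of other cells in the gains and losses was not tested.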

How the data were processed

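Reduced representation bisulfite sequencing reads methylation at CpGs in restriction fragments rich in CpG. The deposited table gives methylated and unmethylated read counts per CpG and library, with the methylated fraction, at positions in mm9; the submitters' processing notes name Bismark and Bowtie2 (versions: not given in the sources used here). In every row, the deposited fraction equals methylated over total counts. Reads carry no molecular identifiers, so copies of the same molecule count as separate reads, and read counts can overstate precision.

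Each CpG was fitted with a quasi-binomial model over the 6 fractions of all 12 libraries, with the dispersion (1.16) moderated by limma 3.58.1 (R 4.3.3) and Benjamini-Hochberg adjustment over 760348 CpGs. It was 2.36 over the 1192 CpGs whose median depth reached 150 reads, where 3 lower calls lie. Gene levels were fitted with limma. Python 3.11.15, SciPy 1.17.1 and edgeR 4.0.16 (an alternative) were also used, and the fits were tested on simulated data. There the CpG test called 32% of 30-point losses, 4% of 20-point losses and 54% of 25-point gains, with 3 calls among unchanged CpGs. The gene test called 96% of 15-point losses, with 2 calls among unchanged genes. All simulated CpGs shared a dispersion close to the fitted one, and only 200 of them were changed. The simulation therefore does not measure false calls in these data, and its shares called need not carry over. CpGs take the symbol of the nearest gene in the deposited table; 65092 have none, and the nearest gene need not be the one regulated.

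Hosts are the same animals across fractions, so they pair the libraries; deviations of the hosts correlated at 0.00669 between Div5 and Div8neg over 182714 CpGs. In the fit with the host as a block, residual degrees of freedom were counted over libraries with fitted levels other than 0 and 100%, which was set after the first fits. Nothing says that the donor cells of the hosts were separate, so p-values reach no further than these hosts. Those of genes measure the spread between libraries of these hosts. Those of single CpGs rest mostly on read counts, scaled by a dispersion drawn towards a value shared by all CpGs. With each CpG's own dispersion 0 CpGs were called.

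The text names the 10 lower and 10 higher called genes with the largest difference (all where fewer), the 10 regions with the most called CpGs, members of the gene lists that were called or hold a called region, and 9 genes named for Div8neg against Div0. The comparison, the lists and the genes were chosen with earlier results of these data known. No sequence of the mm9 build was used here. One gene of the B cell lists is not reported here. Alternatives are given in the closing section.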

Additional observations from a re-analysis of the deposited data

Results flagged for a closer look

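A second deposited table, with less coverage, holds 1639598 CpGs, of which 879250 are outside the table used above. At the 649633 of these with at least 5 reads in each of the 4 libraries the mean level was 63.9% and 63.5% in Div5 and 61.1% and 60.9% in Div8neg. The difference was -2.70 ± 0.180 points (SD, n = 2 hosts). These are other CpGs of the same 4 libraries and 2 hosts, so they are not an independent replicate.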

How the results depend on the processing

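The mean difference kept its sign in every alternative run: it was -3.45 points from summed reads, -1.65 with at least 20 reads, and -1.86 to -2.27 with 1 library left out. Lower CpGs numbered 563 with a coverage trend in the dispersion, 0 with each CpG's own dispersion, 312 at an adjusted p under 0.01, and 87 to 729 with 1 library left out. Higher CpGs numbered 0 with each CpG's own dispersion, 165 with a limit of 10 points, 36 at an adjusted p under 0.01, and 0 to 82 with 1 library left out. Lower regions numbered 5 with at least 5 CpGs and 4 to 23 with 1 library left out; higher regions numbered 5 with a limit of 10 points and 0 to 1 with 1 library left out. Lower genes numbered 0 in the 4 libraries alone, 14 with at least 10 CpGs, 2 from summed reads, 1025 with a limit of 5 points, and 30 to 118 with 1 library left out. Higher genes numbered 0 in the 4 libraries alone, 0 with at least 10 CpGs, 0 within 5 kb, 0 from summed reads, 10 with a limit of 5 points, and 0 to 2 with 1 library left out. With a limit of 30 points, 89.6% of the CpGs lower in host 197 were lower in host 196. With the host as a block there were 706 lower and 63 higher CpGs, 21 lower regions, 63 lower genes and 1 higher gene, and of the named genes Il1a alone lost its call. The fits with 1 library left out assume that the lone library varies like the others. The causes of these changes were not tested. Depth limits host 196 most, at a median of 22 and 23 reads per CpG.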
